A study of Mus musculus with 20 samples.

Results

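Laminins and the proteins that tie them into the basement membrane were followed through 9 genes: the laminin chain genes Lama3, Lama4, Lama5, Lamb1, Lamb2, Lamb3 and Lamc1, and their partners Nid1 and Hspg2. They were taken by symbol from the deposited table, and all 9 were found among its 15465 named genes with values in the breast cancer model. The study sequenced RNA of whole tumour pieces to compare gene expression in primary tumours with that in metastases carried by the same mice. Of its 20 libraries, the 8 of the breast cancer (BC) model were used: 4 primary tumours and 4 lung metastases, one of each from each of 4 mice. Every BC tumour grew from 4T1 cells, a mouse mammary carcinoma line, in an orthotopic model, and was sampled at 28 days; no further allele or treatment is given for either group. All BC samples thus descend from a single line, and the sources used here do not give the strain, sex and age of the hosts. The 12 libraries of the pancreatic model were not analysed here, because their values do not stand on the rows of the gene symbols (Spearman's rho of the BC and pancreatic row means was 0.102, against 0.921 between the BC primary and metastasis means).

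Laminins are secreted as trimers of 1 α, 1 β and 1 γ chain, and they polymerise into the sheet on which epithelial, endothelial and muscle cells rest. Each gene encodes a single chain: Lama genes the α chains, which carry the domains that bind cell receptors, Lamb genes the β chains and Lamc genes the γ chains. Nidogens bind the γ1 chain and type IV collagen, and perlecan, the heparan sulfate proteoglycan encoded by Hspg2, adds a further bridge to cells and growth factors. In the lung, α5-containing laminins line the alveolar and airway epithelium, α4-containing laminins the vessels, and laminins with the α3 and β3 chains anchor epithelia through integrin α6β4.

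Values are normalised reads, expressed per 1000000 reads of a library scaled by the authors, and are given for mice 1 to 4 in that order; group values are mean ± SD over 4 mice. Depth ran from 15447918 reads in lung metastasis 3 to 28995834, and 1 read was worth 0.0337 to 0.0676, so every member was covered by 12 reads or more in every library. Differences were tested with limma on log2(value + 1), with p-values adjusted over all 14003 genes that reached a value of 1 in at least 4 of the 8 libraries. A gene was called at an adjusted p under 0.05. Epithelial keratins and Epcam were present in every library. Sftpc, the surfactant gene that marks alveolar type 2 cells, stood at 1.03 to 1.89 in primary tumours and 3014 to 8152 in lung metastases. RNA of lung cells was thus abundant in the metastasis libraries beside that of the tumour. In such bulk samples fewer cells of a type and less RNA per cell cannot be told apart.

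Lama5 fell in the lung metastases, and it was the one member of the 9 that passed the test. The summed level of the 9 genes was 1884 ± 178 in primary tumours and 1435 ± 131 in metastases, lower in 4 of 4 mice, with Lama5, Lamb1 and Lamc1 making up most of the difference. Lamb3 stood 2.45 times higher in metastases, without overlap of the groups. Lama3 stood 8.60 times higher with overlap (4.41 times without lung metastasis 3), yet neither gene passed the test. The share of all genes whose groups did not overlap was not counted. The levels of Lama4, Lamb2, Nid1 and Hspg2 differed between the tissues by less than their spread among mice. Across all genes tested, 7.18% were called higher in metastases, 1.96% lower and 9.13% in either direction. Of the members, limma on group means called 0 higher and 1 lower. With the mouse as a block it called 0 members higher and 0 lower, and over all genes 936 higher and 176 lower. At an unadjusted limma p under 0.05, 2 members were higher (Lama3 and Lamb3) and 2 lower (Lama5 and Lamb1). Such values were common: Lamb1, at an unadjusted limma p of 0.0494, ranked 3206 by p among the 14003 genes tested. By edgeR on the recovered reads 0 members were called higher, and by DESeq2 2 were (Lama3 and Lamb3). Over all genes, edgeR called 843 higher and DESeq2 1468. The median log2 change was -0.11 over the members and -0.06 over all genes, with 4 of 9 members and 45.1% of all genes above 0.

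**Figure D1:**
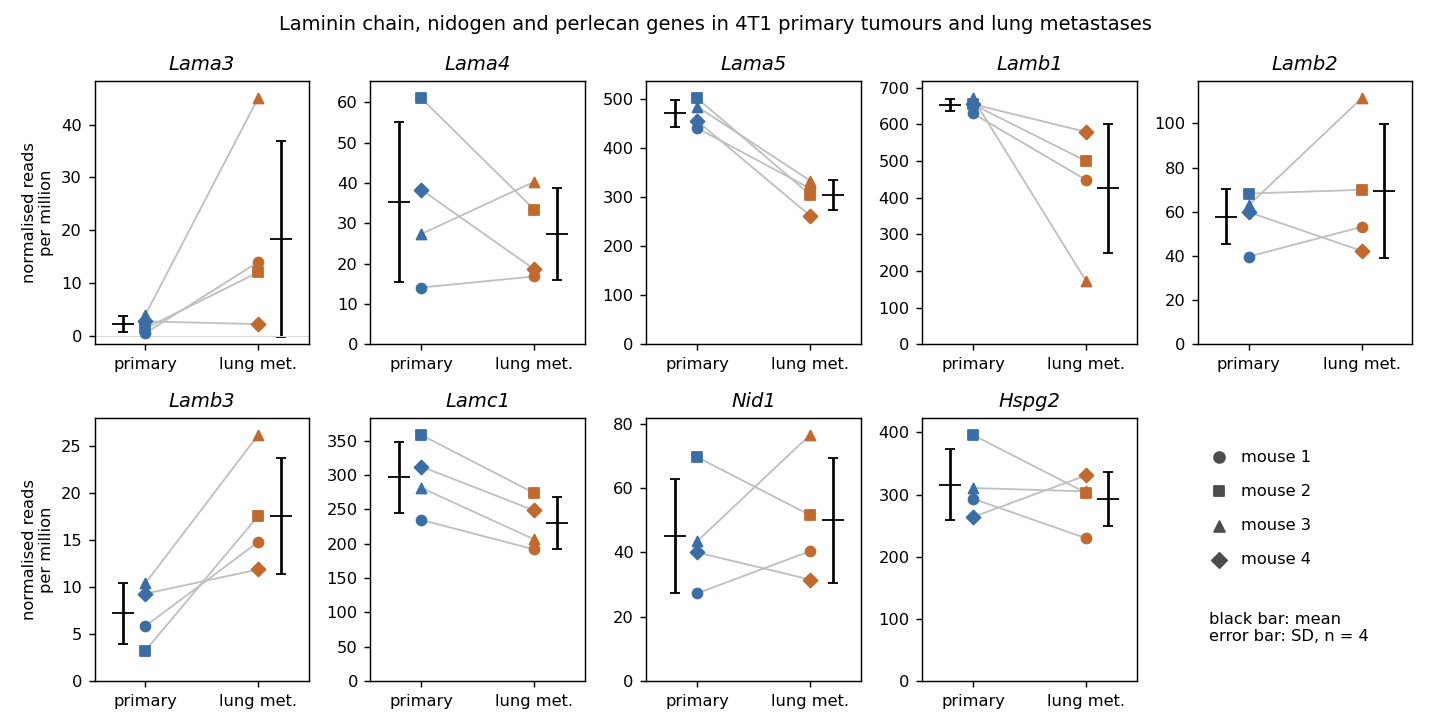
Normalised reads per 1000000 (y axis, starting at 0 or just below it) of each of the 9 genes in primary tumours (blue) and lung metastases (orange); symbols mark the mouse, grey lines join tissues of 1 mouse, and black bars give the mean and SD of 4 mice. Lama5 and Lamb1 were lower and Lamb3 higher in the metastasis of every mouse, with no overlap of the groups. How many of all genes separate in this way was not counted. Lung metastasis 3 (triangle) held the highest Lama3, Lamb2, Lamb3 and Nid1 and the lowest Lamb1.

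The α5 chain encoded by Lama5 (ENSMUSG00000015647) is the broadly expressed α chain of mature epithelial and endothelial basement membranes. Lama5 measured 441, 502, 485 and 456 in the primary tumours of mice 1 to 4, and 318, 305, 334 and 262 in their lung metastases. The groups stood well apart: the lowest primary tumour lay above the highest metastasis, and both groups were tight, with coefficients of variation of 5.86% and 10.1%. Its mean was 470.9 ± 27.6 in primary tumours and 305 ± 30.7 in metastases, 1.54 times higher in the primaries, with each metastasis at 0.576 to 0.721 of the primary tumour of the same mouse. Lama5 fell by 0.63 on the log2 scale (SE 0.162, 95% interval -0.99 to -0.27, limma adjusted p = 0.0360). The call was near its limit: with the mouse as a block the adjusted p was 0.0949, and leaving out 1 library at a time ended the call for 7 of the 8 libraries (adjusted p 0.0653 to 0.113, and 0.00566 without lung metastasis 3), while the log2 change stayed between -0.67 and -0.56.

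Lama4 (ENSMUSG00000019846) encodes the α4 chain, known from vessels and other mesenchymal tissues. Lama4 stood at 14.1, 61.0, 27.3 and 38.4 in primary tumours 1 to 4 and at 16.8, 33.4, 40.3 and 18.6 in the metastases. Both groups were scattered and overlapped widely, with primary tumour 2 highest and primary tumour 1 lowest of all 8. The means were 35.2 ± 19.9 and 27.3 ± 11.4, and the log2 change was -0.27 with a 95% interval of -1.21 to 0.68 (limma adjusted p = 0.744); it was 0.05 without primary tumour 2.

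Lama3 (ENSMUSG00000024421) encodes the α3 chain, which joins β3 in laminins of epithelia and also occurs with β1 or β2. It was scarce in the primary tumours at 0.477, 1.38, 3.94 and 2.71, counts of 12, 35, 117 and 77 reads. The metastases held 14.0, 12.0, 45.1 and 2.18. Metastases 1 to 3 thus stood above every primary tumour and metastasis 4 below 2 of them, with lung metastasis 3 more than all other libraries together. The means were 2.13 ± 1.52 and 18.3 ± 18.6, and the log2 change was 2.20 (SE 0.706, 95% interval 0.64 to 3.76, limma adjusted p = 0.0851), higher in 3 of 4 mice. Of 17 alternatives 3 called the gene: without lung metastasis 4 (log2 change 2.87, adjusted p = 0.00919), with weights on the libraries (0.0171) and by DESeq2 (0.00155). The other alternatives did not, with adjusted p-values of 0.0625 with the mouse as a block, 0.0665 by edgeR and up to 0.223, and without lung metastasis 3 the log2 change was 1.59 (adjusted p = 0.113).

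Among β chains, Lamb1 (ENSMUSG00000002900), the β1 chain of most embryonic and many adult laminins, had the highest mean level per length of the 9 genes in both tissues. It measured 629.9, 655, 671 and 655 in primary tumours 1 to 4 and 449, 500.2, 174 and 579.6 in the metastases. All 4 metastases lay below all 4 primary tumours, but they were spread far more widely: the coefficient of variation was 2.62% in primary tumours and 41.4% in metastases, where metastasis 3 lay far below the other 3. The means were 652.7 ± 17.1 and 425.6 ± 176, the log2 change was -0.75 (SE 0.337) and the limma adjusted p was 0.216. Without lung metastasis 3 the log2 change was -0.36 (adjusted p = 0.119), so that library alone moved the value from -0.36 to -0.75.

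Lamb2 (ENSMUSG00000052911) encodes β2, a chain of vascular, glomerular and neuromuscular basement membranes. Its levels were 39.7, 68.2, 62.9 and 59.8 in the primary tumours and 53.1, 69.9, 111 and 42.3 in the metastases. Metastasis 3 stood highest and the other 3 metastases lay among or near the primary tumours. The means were 57.7 ± 12.5 and 69.2 ± 30.4, with a log2 change of 0.19 and a 95% interval of -0.45 to 0.84 (limma adjusted p = 0.730), which became -0.07 without lung metastasis 3.

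Lamb3 (ENSMUSG00000026639) encodes β3, a chain of epithelial laminins that pairs with α3. The primary tumours held 5.84, 3.23, 10.4 and 9.30 and the metastases 14.8, 17.6, 26.2 and 11.9. Every metastasis exceeded every primary tumour, by a narrow margin at the edge where metastasis 4 met primary tumour 3. Group means were 7.20 ± 3.28 and 17.6 ± 6.19, and within mice the metastasis held 2.54, 5.45, 2.52 and 1.28 times the primary tumour's level. The log2 change was 1.23 (SE 0.367, 95% interval 0.42 to 2.04), with a limma adjusted p of 0.0650, higher in 4 of 4 mice. Of 17 alternatives 2 called it, the one without lung metastasis 4 (adjusted p = 0.0478 at a log2 change of 1.39) and DESeq2 (0.0201). The others did not, with 0.0545 for weights on the libraries, 0.0747 for the mouse as a block, 0.0897 by edgeR and 0.0674 to 0.160 without any other single library.

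Lamc1 (ENSMUSG00000026478) encodes γ1, the chain that nidogens bind and that most laminins share. It stood at 235, 358, 281 and 312 in primary tumours 1 to 4 and at 192, 274, 206 and 248 in the metastases. Each metastasis lay below the primary tumour of its own mouse, by a similar proportion (0.733 to 0.817 of it), although the groups overlapped because mouse 2 was high and mouse 1 low in both tissues. The means were 296.7 ± 52.1 and 230.0 ± 37.8, and the log2 change was -0.36 (SE 0.191, 95% interval -0.79 to 0.06, limma adjusted p = 0.288; adjusted p = 0.267 with the mouse as a block).

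The ratio of Lamb1 to Lamc1, chains of the common β1γ1 pair, was 1.83 to 2.69 in primary tumours and 2.34, 1.83, 0.842 and 2.33 in the metastases, so that metastasis 3 alone held fewer Lamb1 than Lamc1 reads. The ratio was taken without correction for length, was computed after the values were seen, and is a description with no test.

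**Figure D2:**
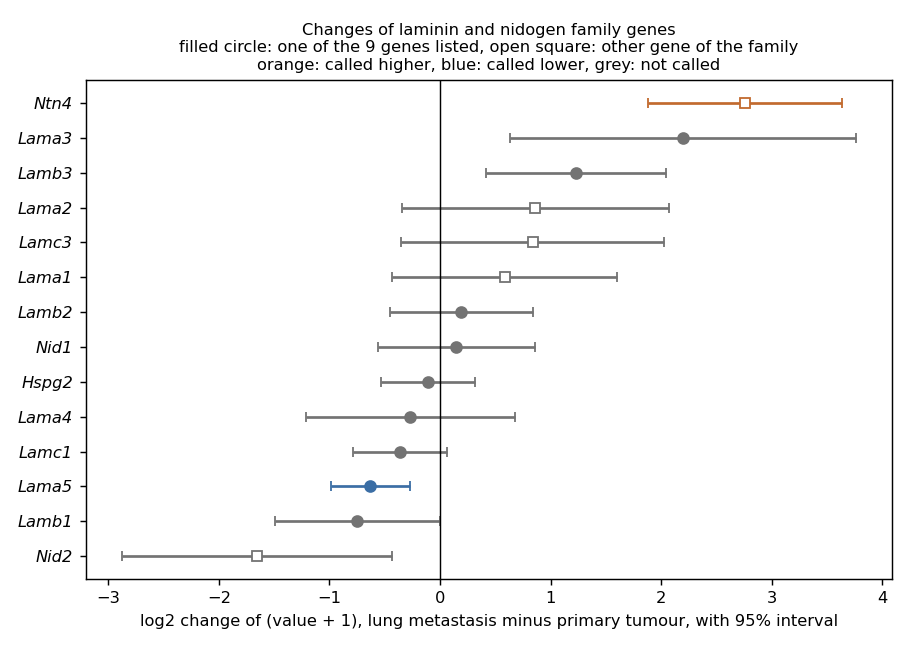
Log2 change of (value + 1) from primary tumour to lung metastasis with its 95% interval (x axis) for the 9 genes (filled circles) and for Lama1, Lama2, Lamc3, Ntn4 and Nid2 (open squares). Lama5 (-0.63) was called lower and Ntn4 (2.76) higher, and the widest interval among the 9 genes is that of Lama3.

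Nid1 (ENSMUSG00000005397) encodes nidogen 1, which links the laminin sheet to type IV collagen. It measured 27.2, 69.6, 43.4 and 39.9 in the primary tumours and 40.3, 51.6, 76.5 and 31.5 in the metastases. Mice 1 and 3 were higher in the metastasis and mice 2 and 4 in the primary tumour, and the groups overlapped over most of their range. The means were 45.03 ± 17.8 and 49.96 ± 19.5, with a log2 change of 0.15 and a 95% interval of -0.56 to 0.86 (limma adjusted p = 0.816), which turned to -0.06 without primary tumour 1 and -0.08 without metastasis 3.

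Its paralog Nid2 was named after its values were seen. Nid2 stood at 6.56, 59.7, 16.2 and 33.1 in primary tumours and 4.11, 7.26, 8.38 and 5.92 in metastases. It was lower in the metastasis of every mouse, with overlap between the groups, and was not called by limma (log2 change -1.65, adjusted p = 0.0962), whereas DESeq2 did call it.

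Hspg2 (ENSMUSG00000028763) encodes the core protein of perlecan. Its levels were 293, 396, 311 and 264 in the primary tumours and 230, 303, 305 and 331 in the metastases. The groups overlapped, and the 8 libraries ran from 230 in metastasis 1 to 396 in primary tumour 2. The means were 316 ± 56.8 and 292 ± 43.4, and the log2 change was -0.11 (95% interval -0.53 to 0.31, limma adjusted p = 0.768).

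To set the members beside each other, levels were divided by transcript length (the longest protein-coding transcript of GENCODE M21, on GRCm38) and are given as normalised reads (scaled as above) per 1000 bases. In primary tumours Lamb1 led at 112.8 ± 2.96, followed by Lama5 at 41.4 ± 2.42, Lamc1 at 38.9 ± 6.83, Hspg2 at 22.3 ± 4.00, Lamb2 at 10.3 ± 2.22, Nid1 at 7.39 ± 2.92, Lama4 at 5.82 ± 3.29, Lamb3 at 1.48 ± 0.675 and Lama3 at 0.202 ± 0.144. Neighbours in this order overlapped in range for Lama5 and Lamc1, for Lamb2 and Nid1 and for Nid1 and Lama4, and were separate otherwise. In the metastases the order was Lamb1 (73.6 ± 30.5), Lamc1 (30.2 ± 4.96), Lama5 (26.8 ± 2.69), Hspg2 (20.6 ± 3.06), Lamb2 (12.3 ± 5.39), Nid1 (8.20 ± 3.20), Lama4 (4.51 ± 1.89), Lamb3 (3.62 ± 1.27) and Lama3 (1.74 ± 1.76), and every pair of neighbours overlapped. The order thus changed in 1 place, between Lama5 and Lamc1, whose ranges overlapped in both tissues. Dividing by coding length in place of transcript length, a choice made after the values were seen, put Lamc1 above Lama5 in both tissues without overlap (61.5 against 42.2 in primary tumours and 47.7 against 27.3 in metastases). The Lamc1 transcript has 7622 bases, 4821 of them coding. Coding length also put Nid1 above Lamb2 in both tissues and Lamb3 above Lama4 in metastases (5.03 against 5.01), in each case with overlap.

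Within the α and β chain families, the share of a gene was its level per length over the sum of its family, a description of transcript levels with no test. Lama5 held 86.5% ± 4.90 of α chain reads in primary tumours and 79.1% ± 8.00 in metastases, Lama4 11.7% and 12.8%, and Lama3 0.415% and 4.51%. The Lama3 share reached 9.94% in lung metastasis 3, where Lama5 was at its lowest with 68.2%. Lamb1 held 90.6% ± 1.55 of β chain reads in primary tumours, and in metastases 1 to 4 its share was 86.1%, 84.4%, 54.4% and 91.0%. The remaining β reads of metastasis 3 were mostly Lamb2, at 35.9%, with Lamb3 at 9.76%.

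**Figure D3:**
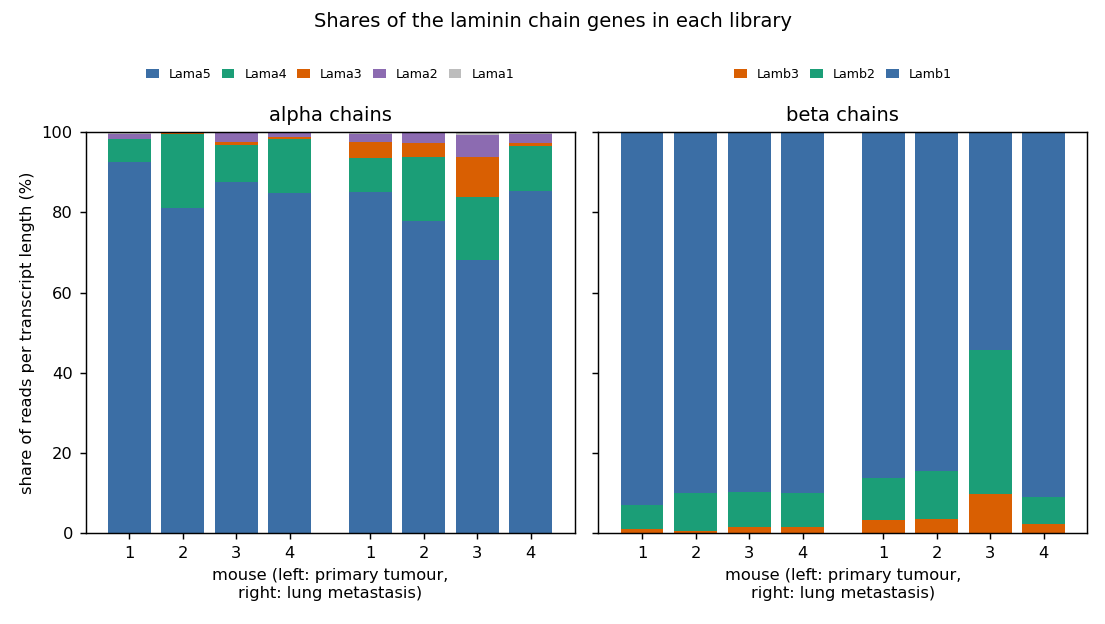
Share of each α or β chain gene in the reads per transcript length of its family (y axis, percent) in every library, with the 4 primary tumours at the left and the 4 lung metastases at the right of each panel. Lama5 and Lamb1 dominate their families in every library, least so in lung metastasis 3 (68.2% and 54.4%).

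The members differed in which libraries were high, and the marker sums of other cell types differed between the same libraries. The summed level of 10 alveolar epithelium markers was 19.1 to 41.8 in primary tumours and 5930, 7687, 13145 and 4368 in metastases 1 to 4; all 10 were called higher, and none was at 0 throughout a group. The 10 endothelial markers summed to 259, 958, 330.0 and 401 in primary tumours 1 to 4 and 1082, 841, 2614 and 605 in metastases 1 to 4. Of these 10, 5 were called higher (Tek, Kdr, Vwf, Cldn5 and Esam), the calls of Vwf, Cldn5 and Esam ending without primary tumour 1, 3 or 4. The Cldn5 call also ended by edgeR and without metastasis 1, that of Esam by edgeR, at pseudocount 5 and without metastasis 1 or 2. Pecam1, Cdh5, Eng, Emcn and Tie1, named after their values were seen, were not called. The first 4 were higher in the metastasis of 2 of 4 mice, Tie1 of 3. The Emcn mean was lower there (34.7 ± 19.2 against 26.6 ± 4.79). The 8 carcinoma epithelium markers summed to 1442 to 2808 in primary tumours and 1574, 1649, 985 and 3339 in metastases 1 to 4. Of these 8, Krt19 was called higher (14.1 ± 5.72 against 123 ± 48.0) and 0 lower. At an unadjusted limma p under 0.05, 1 was lower, Epcam. It was called lower with the mouse as a block, and edgeR and DESeq2 called 0 lower. Lung metastasis 3 thus had the highest alveolar and endothelial sums and the lowest carcinoma sum. Krt8 and Krt18 made up 42.8% to 87.7% of the carcinoma sum, and its other genes did not all follow it. In lung metastasis 3 Cdh1, which encodes E-cadherin, was the highest of all 8 libraries (166). Krt19 (128) and Krt7 (220.1) were there second among the metastases to metastasis 4. Epcam, named after its values were seen, was lower in the metastasis of 4 of 4 mice. Its means were 123 ± 40.1 in primary tumours and 60.9 ± 35.6 in metastases (log2 change -1.12, limma adjusted p = 0.0932). The part of lung epithelium in the carcinoma sum was not tested.

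Ordered from high to low, the metastases ran 3, 2, 1, 4 for Lamb2, Lamb3 and Nid1, which is the order of the alveolar sum. That sum was higher in the metastasis of 4 of 4 mice, Lamb3 also of 4, Lamb2 of 3 and Nid1 of 2. For Lama3 and Lama5 the metastases ran 3, 1, 2, 4, the order of the endothelial sum. Between the tissues, however, Lama5 was lower in the metastasis of 4 of 4 mice, and the endothelial sum was higher in 3 of 4. For Lamb1 the metastases ran 4, 2, 1, 3, the order of the carcinoma sum, while Lama4, Lamc1 and Hspg2 followed none of these 3 orders. Between the tissues, Lamb1 was lower in the metastasis of 4 of 4 mice, and the carcinoma sum was higher there in 2 of 4. The metastasis order of Lamc1, 2, 4, 3, 1, was that of the mesothelium sum, in which metastases 4 and 3 stood close together (438 and 434). In 4 of 4 mice that sum was higher in the metastasis and Lamc1 was lower. In the primary tumours Lama4 and Lamc1 ran 2, 4, 3, 1, the order there of both the endothelial sum and the pericyte and smooth muscle sum. None of the 9 genes held the order of the same marker sum in both tissues. With 4 libraries a group these orders are descriptions, and the part of any of these cell types in the levels of the members was not tested.

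**Figure D4:**
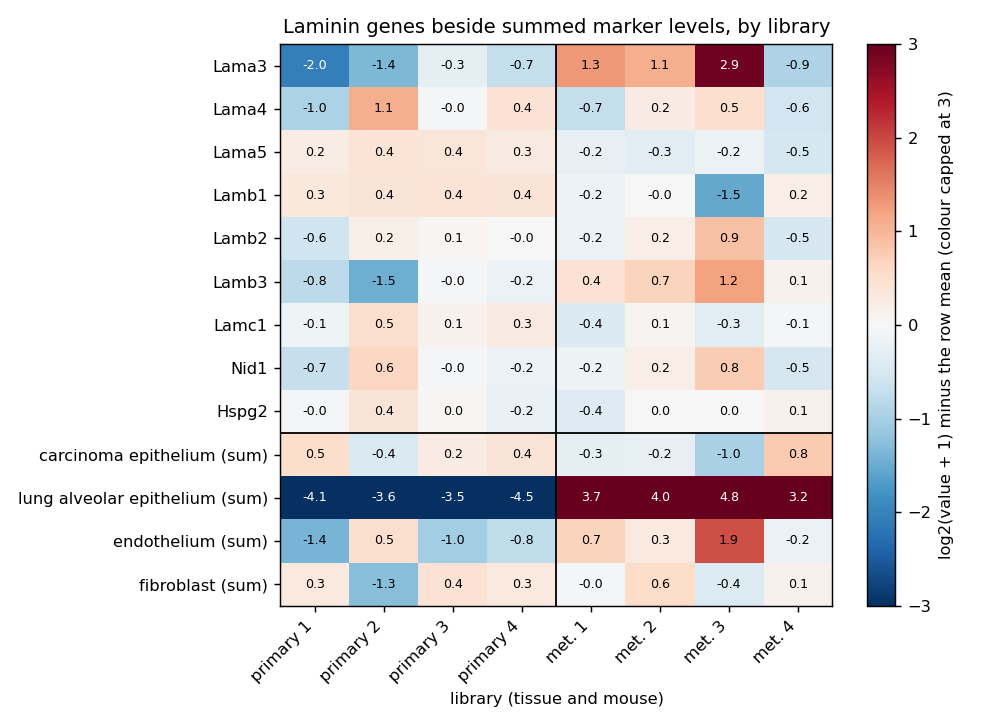
Log2(value + 1) minus the row's mean over 8 libraries (colour and printed value) for the 9 genes and 4 summed marker lists, with libraries in columns. Lung metastasis 3 shows the highest Lama3 (2.9) and the lowest Lamb1 (-1.5) together with the highest alveolar (4.8) and endothelial (1.9) and the lowest carcinoma epithelium (-1.0) sums.

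Markers of other tissues in the sampled pieces were less uniform. All 7 mesothelium markers were called higher (summed level 55.0 to 143 in primary tumours, 181 to 520.2 in metastases), and Nkain4 and Rspo1 were at 0 in all primary tumours. Of 8 pericyte and smooth muscle markers, Rgs5 fell from 78.7 ± 46.9 to 3.73 ± 1.11 and Des rose from 8.65 ± 7.56 to 44.3 ± 21.7 (not called without primary tumour 3 or 4 or metastasis 1), and the sum was 166 to 413 against 169 to 409.9. Of 6 fibroblast markers, Dcn was called higher (59.96 ± 6.61 against 142 ± 49.5). Lum, named after its values were seen, stood lower in 4 of 4 mice (38.8 ± 25.0 against 3.65 ± 1.58, log2 change -2.57). It was not called by limma (adjusted p = 0.0656) but was with the mouse as a block (0.0356), by edgeR (0.0268) and by DESeq2. The fibroblast sums overlapped at 668 to 2169 and 1222 to 2377. Of the adipocyte and skeletal muscle list only the adipocyte genes Adipoq and Cfd were among the named genes, so no muscle gene was read. Of these 2 genes 1 was tested, with 0 called by limma or edgeR, 1 at an unadjusted p under 0.05 and 1 by DESeq2. They summed to 1.51 to 105 in primary tumours and 0 to 1.03 in metastases. Adipoq was at 0 in all metastases.

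Further laminin chain genes were low. Lama1 stood at 0.678 ± 0.697 in primary tumours and 1.63 ± 1.33 in metastases, Lama2, the α2 chain of muscle and nerve, at 5.67 ± 4.02 and 10.9 ± 8.04, and Lamc3 at 2.22 ± 2.07 and 4.57 ± 3.13. None of these 3 was called. Ntn4, a netrin that binds laminin γ chains and disturbs laminin polymerisation, rose from 3.71 ± 1.62 to 32.8 ± 18.7 (log2 change 2.76, limma adjusted p = 0.00168), higher in 4 of 4 mice and called in every alternative run. Of this list of 4, 1 was called higher and 0 lower (0 lower also at an unadjusted p under 0.05 and by edgeR or DESeq2), with a median log2 change of 0.85.

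Type IV collagen forms a further network of the basement membrane, and of 10 collagen genes of this structure 2 were called higher and 1 lower, with a median log2 change of -0.09. Col4a3 and Col4a4, chains of the α3α4α5 network of alveolar and glomerular basement membranes, rose from 0.624 ± 0.604 to 43.9 ± 53.1 and from 0.129 ± 0.258 to 39.9 ± 54.8 (limma adjusted p = 0.00650 and 0.00677). Both were highest in lung metastasis 3, at 122 and 121, the library with the highest Lama3. Col15a1, a multiplexin at the border of the basement membrane and the stroma, fell from 49.7 ± 7.31 to 13.4 ± 5.09 (adjusted p = 0.00281). Col4a1 and Col4a2, the chains of the ubiquitous network, were at 489.9 ± 286 against 458 ± 196 and at 305 ± 209 against 317 ± 207 and were not called.

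Of 15 further linker and matrix genes of the basement membrane 13 were tested, 3 were called higher and 2 lower, with a median log2 change of 0.03. Smoc1, a calcium-binding basement membrane protein, fell from 8.79 ± 2.07 to 1.32 ± 0.384 (limma adjusted p = 0.00152), and its paralog Smoc2 rose from 1.31 ± 1.35 to 8.35 ± 3.27 (adjusted p = 0.0161). Fbln1, which encodes fibulin 1, a ligand of laminin and nidogen, rose from 6.30 ± 3.42 to 17.1 ± 1.81 (adjusted p = 0.0386). Pxdn, the peroxidase that crosslinks type IV collagen, fell from 160.4 ± 11.9 to 109 ± 12.7 (adjusted p = 0.0424; adjusted p = 0.0909 with the mouse as a block). The fifth called gene, Hmcn1 (hemicentin 1), was named after its values were seen and rose from 1.06 ± 1.21 to 17.0 ± 18.3 (adjusted p = 0.0472). By edgeR, Smoc1 alone of these 5 was called. Leaving out single libraries ended the call of Smoc2 (primary tumour 4 or metastasis 2), Fbln1 (primary tumour 4 or any metastasis), Pxdn (any primary tumour, metastasis 1 or 4) and Hmcn1 (any primary tumour, metastasis 1, 2 or 3), with adjusted p-values of up to 0.145, 0.110, 0.135 and 0.138 over all alternatives.

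Laminin receptors were read through 8 genes, of which 1 was called higher and 0 lower by limma, edgeR or DESeq2 (0 lower also at an unadjusted p under 0.05), with a median log2 change of -0.23. Bcam, the Lutheran glycoprotein, a receptor specific for the α5 chain, rose from 23.7 ± 8.96 to 174 ± 112. It stood at 19.7, 36.2, 15.4 and 23.3 in primary tumours and at 115, 172, 331 and 78.3 in metastases, each metastasis above every primary tumour. Its log2 change was 2.69 (limma adjusted p = 0.00242), and no alternative ended the call. Bcam and its ligand gene Lama5 thus passed the test in opposite directions. The call of Lama5 was the less firm, as it held in 9 of 17 alternatives and ended with the mouse as a block (limma adjusted p = 0.0949). The integrin genes Itga3, Itga6 and Itgb4, whose products bind α3- and α5-containing laminins, named after their values were seen, were not called and stood at 782 ± 108 against 586 ± 112, 189.5 ± 14.2 against 178 ± 40.2 and 170.5 ± 30.04 against 129.6 ± 22.6.

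Genes of the enzymes that build the laminin-binding glycan of dystroglycan did not pass the test in any tool: of 10 listed, 8 were tested and limma, edgeR and DESeq2 each called 0, with 1 at an unadjusted p under 0.05. Their median log2 change was -0.24, and 1 of the 8 was above 0. Dag1, the gene of dystroglycan itself, stood at 61.9 ± 15.9 in primary tumours and 99.0 ± 45.2 in metastases and was not called.

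**Figure D5:**
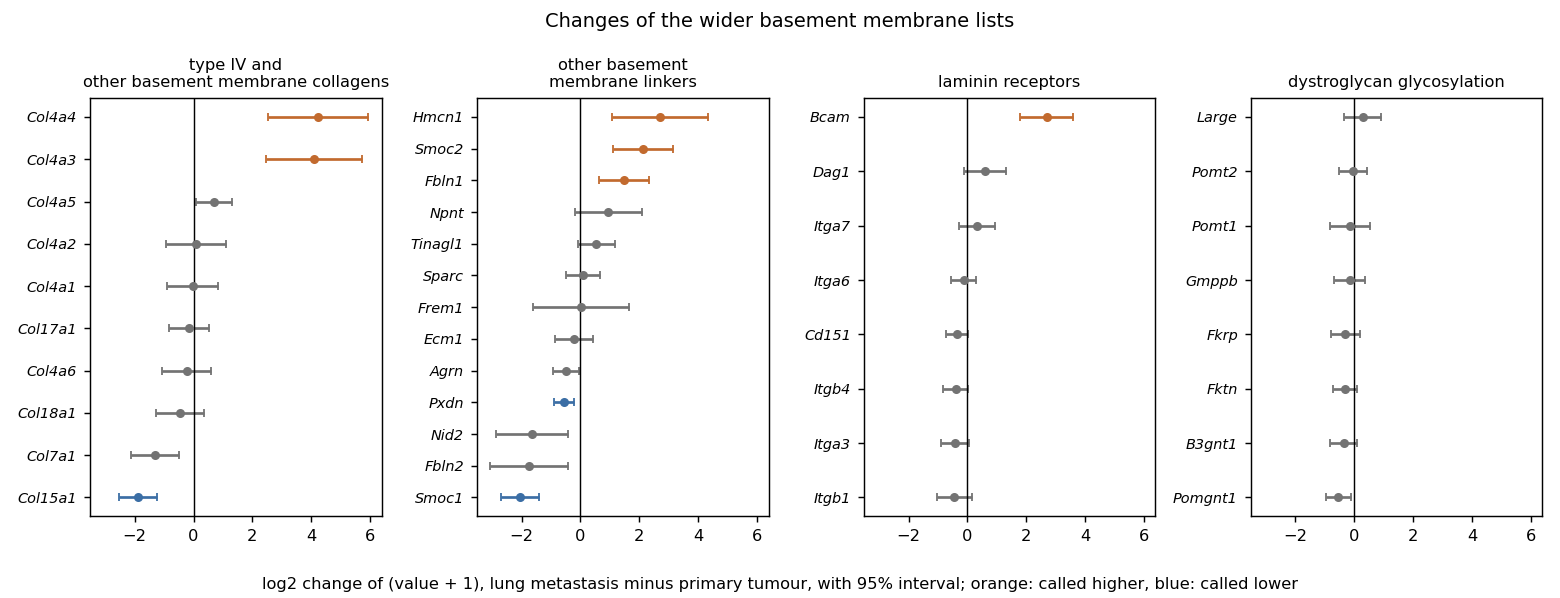
Log2 change of (value + 1) from primary tumour to lung metastasis with its 95% interval (x axis) for the tested genes of 4 lists around the laminins. The 3 collagen, 5 linker and 1 receptor gene that were called are coloured (orange higher, blue lower), and 0 of the dystroglycan glycosylation genes were.

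For the 2 members with the smallest p, the genes of most similar profile were sought among 10238 tested genes with a mean of at least 10, by the root mean square difference of centred log2(value + 1) over the 8 libraries. Lama5 was followed most closely by St6galnac4 (difference 0.0726), Spred2 (0.0815) and Abcc3 (0.102). St6galnac4, a sialyltransferase gene, stood at 50.7 ± 3.29 in primary tumours and 30.5 ± 2.97 in metastases, Spred2, an inhibitor of the Ras and ERK pathway, at 60.5 ± 2.56 and 40.1 ± 5.43, and Abcc3, an organic anion transporter, at 53.4 ± 1.64 and 34.5 ± 5.78. Lamb3 was followed at larger differences by Alcam (0.225), Arap2 (0.260) and Fbn1 (0.267). Alcam, a cell adhesion molecule of the immunoglobulin superfamily, stood at 56.7 ± 23.6 and 123 ± 45.9, Arap2, a GTPase-activating protein, at 16.8 ± 3.82 and 39.2 ± 16.6, and Fbn1, which encodes fibrillin 1 of microfibrils, at 28.3 ± 7.92 and 70.5 ± 26.6.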

How the data were processed

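The authors deposited 1 table of normalised read counts (signal values) for bulk tumour RNA, prepared with RNeasy and TruSeq RNA kits per the labels' protocols. Reads were processed against mm9, per the submitters' processing notes; aligner, counter and annotation were not given in the sources used here, so reads of near-identical or overlapping genes could not be checked. BC columns summed to 962401 to 1044330 and are thus not plain CPM, which the design had assumed. All values of each BC column were whole multiples of 1 read within 0.05 reads (100%), which recovered the reads. Of 37583 rows 15465 had a symbol and BC values. Coordinates are left out, since the reference used is GRCm38.

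The test was limma 3.58.1 (R 4.3.3) with an intensity trend on log2(value + 1), group means only, for genes at 1 or more in 4 or more of the 8 BC libraries, with Benjamini-Hochberg adjustment over 14003 genes; the pseudocount of 1 makes changes of low genes look smaller. The test was also run on simulated counts with the same dispersion for every gene and no mouse effect, which is simpler than these data. Alternatives were pseudocounts of 0.1 and 5, no filter, median-ratio scaling, plain CPM, the mouse as a block, array weights, edgeR 4.0.16 quasi-likelihood and DESeq2 1.42.0 on the recovered reads, and leaving out each library. Sample titles carry the mouse number, so same-numbered tissues come from 1 animal; deviations from the group means correlated at 0.0962, -0.151, 0.0350 and 0.00655 in mice 1 to 4. The members and all gene lists were chosen with earlier results of these data known, so they are described by counts and medians and none is independent evidence. Named were all 9 members, the called genes of each list (at most the 4 with the smallest p) and the 3 genes most like each of the 2 members with the smallest p; further list genes (such as Nid2, Hmcn1, Esam, Col4a1, Dag1 and the integrins) were named after their values were seen. A further gene is not reported here.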

Additional observations from a re-analysis of the deposited data

Results flagged for a closer look

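Among the 38 genes named as members, laminin chains or called list genes, 74 groups of 4 libraries were examined for a library far from the other 3. In all, 4 were found, which is near the number that chance alone gives, about 1 in 20 groups. None concerned a member. Col4a4 stood at 121.3 in BC lung metastasis 3 against 4.92 to 24.1 in the other metastases, and Vwf, the gene of von Willebrand factor of endothelial cells, at 405.6 in the same library against 32.1 to 77.1. Lung metastasis 3 is also the library with the highest Lama3 and the lowest Lamb1. The other 2 rest on few reads: Col4a4 at 0.5166 in BC primary tumour 1 and Upk3b, a mesothelium marker, at 0.03944 in BC primary tumour 2, each against 0 in the other 3 primary tumours. A group with 0 in 3 libraries is flagged at any value above 0 in the remaining library.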

How the results depend on the processing

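The number of members called lower was 1 and fell to 0 with the mouse as a block; it was 0 to 1 when 1 library was left out. The number called higher was 0, and it was 1 with array weights, 2 by DESeq2 and 0 to 2 when 1 library was left out (2 without lung metastasis 4). Over all genes, 1005 were called higher and 274 lower; array weights gave 1536 and 747, DESeq2 gave 1468 and 517, edgeR gave 843 and 207, the block gave 936 and 176, and leaving out 1 library gave 627 to 1237 and 84 to 431 (both lowest without primary tumour 4). The cause of these differences was not tested. With the block, the pairing of tissues by mouse changed 1 member call, that of Lama5, and of the basement membrane lists that of Pxdn; among markers, Msln was no longer called, and Epcam and Lum were called lower. The sign was kept in every alternative for Lama3, Lama5, Lamb1, Lamb3 and Lamc1, and turned when 1 library was left out for Lama4, Lamb2, Nid1 and Hspg2. Calls of Ntn4, Col4a3, Col4a4, Col15a1, Smoc1 and Bcam held in all 17 alternatives; those of Smoc2, Fbln1, Pxdn and Hmcn1 ended in 4, 6, 9 and 10. Scaling moved the median log2 change of all genes by less than 0.1. Coding length changed chain shares by less than 1 SD. Depth limits Lama3 most, with 12 reads in primary tumour 1, and lung metastasis 3 has the fewest reads. Each tissue of a mouse gave 1 library, so the spread within a tumour is unknown.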
